A study of Mus musculus with 20 samples.

Results

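The genes described here are the transcription factor Creb1 (CREB) and 9 regulators induced by neuronal activity. Of the regulators, Crem, Sik1, Dusp1, Dusp4, Dusp5, Dusp6, Spry2 and Spry4 restrain signalling through CREB or the MAP kinases (MAPK). The remaining regulator, Gadd45b, is tied to DNA demethylation and to stress kinase signalling. All 10 genes were taken from a list of symbols drawn up after results of these data were known. They were matched through the GRCm38 annotation to 10 of the 47729 gene identifiers in the count table. All 10 passed the filter on low counts that left 16692 genes for testing. Because the genes were selected on their CPM in these 20 libraries, with the comparison of 24mSC with 5mSC in view, the levels and fold changes of the 10 genes are given as a description, with no p-value for a single gene, and counts of these genes past a threshold are printed for scale only.

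RNA-seq was performed on the hippocampus of male C57BL/6 mice with no perturbation other than their housing. The groups, of 5 libraries each, were mice aged 24 months in an enriched environment (24mEE) or under standard conditions (24mSC), and mice aged 5 months in an enriched environment (5mEE) or under standard conditions (5mSC). Per the methods of the study, enriched cages were larger and held running wheels, platforms, tubes and houses that were moved weekly, and old mice lived in them for their last months only, whereas the time that young mice spent in them is not given in the sources used here. The mice used for RNA were not those tested in the maze, and they were kept in runs at different times, but the run of each library is not given in the sources used here and its part in the results was not tested.

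Levels are CPM, counts per M (mega) counts of the library on the TMM scale, which corrects library totals for differences in RNA composition. Library totals were 11 to 34.1 M counts, so 3 counts, taken here as a detection limit, correspond to 0.0882 to 0.329 CPM, and no library held fewer than 89 counts of any of the 10 genes. The library of 5mSC replicate 3 stood apart: mitochondrial ribosomal RNA took 26.8% of its counts, against 0.883% to 1.82% in the other 19, its median correlation with its own group was 0.928 and its choroid plexus markers averaged 3.63 log2 CPM, against 0.33 to 2.29 in the others. 5mSC replicate 1 correlated with its group at 0.982, below the 0.985 to 0.988 of 5mSC replicates 2, 4 and 5, so counts are also given for the 18 libraries without these 2. Neuron markers averaged 8.58 log2 CPM in this replicate 3, against 9.24 to 9.59 in the other 19 libraries. The labels name no shared cage, litter or day, so p-values measure the spread between these libraries. Per the methods of the study, mice were kept in groups, so libraries of a group may come from the same cage. A difference between cages cannot be told apart from one of housing.

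CREB binds the cAMP response element (CRE) and switches on genes when calcium or cAMP rises in an active neuron, while growth factors and synaptic input drive the ERK branch of the MAPK cascade, which reaches CREB and the serum response factor. Both routes induce their own inhibitors, so transcripts of these inhibitors are widely read as a trace of recent activity. CREB in the hippocampus is known from rodents to be needed for the formation of long-term memory.

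The regions around the transcription start sites of 4 of the 10 genes are shown because Gadd45b, Dusp1, Dusp5 and Dusp6 deviated together from library to library, as described further on. The windows come from RefSeq (GRCm38.p6) and run from 250 bases before to 50 bases after the start site. They were searched for 6 of the 10 genes, these 4 and Creb1 and Spry2. The others were Crem, Sik1, Dusp4 and Spry4. Capitals mark matches on either strand to the CRE (TGACGTCA), its shorter core (TGACG or CGTCA), the AP-1 site (TGANTCA), the EGR site (GCGNGGGCG) and the serum response element (SRE).
Dusp1, chr17:26508423-26508722, minus strand: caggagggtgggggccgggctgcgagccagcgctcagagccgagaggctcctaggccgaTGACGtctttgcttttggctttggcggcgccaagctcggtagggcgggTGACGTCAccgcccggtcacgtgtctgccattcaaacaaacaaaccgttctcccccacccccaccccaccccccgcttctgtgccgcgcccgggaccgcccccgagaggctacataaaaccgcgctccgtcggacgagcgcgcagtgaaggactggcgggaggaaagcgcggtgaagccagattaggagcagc
Dusp5, chr19:53528895-53529194, plus strand: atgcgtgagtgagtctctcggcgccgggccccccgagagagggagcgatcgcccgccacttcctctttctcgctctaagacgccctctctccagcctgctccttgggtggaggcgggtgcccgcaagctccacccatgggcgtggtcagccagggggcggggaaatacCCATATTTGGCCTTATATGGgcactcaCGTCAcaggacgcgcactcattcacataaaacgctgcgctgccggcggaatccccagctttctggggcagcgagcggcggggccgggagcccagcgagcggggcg
Gadd45b, chr10:80929841-80930140, plus strand: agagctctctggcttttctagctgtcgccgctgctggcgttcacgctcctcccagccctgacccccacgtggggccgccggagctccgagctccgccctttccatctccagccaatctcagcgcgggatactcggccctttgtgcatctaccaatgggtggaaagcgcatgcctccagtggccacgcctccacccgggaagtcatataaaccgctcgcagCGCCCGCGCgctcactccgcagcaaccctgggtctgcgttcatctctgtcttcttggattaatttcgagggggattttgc
Dusp6, chr10:99262981-99263280, plus strand: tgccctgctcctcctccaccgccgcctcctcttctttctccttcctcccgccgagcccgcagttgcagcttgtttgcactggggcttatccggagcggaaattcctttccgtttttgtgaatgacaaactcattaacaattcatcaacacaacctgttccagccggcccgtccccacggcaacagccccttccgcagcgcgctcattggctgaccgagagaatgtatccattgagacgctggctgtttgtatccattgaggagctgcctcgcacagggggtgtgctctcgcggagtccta
In Dusp1 a full CRE began at position -143 from the start site, and cores, of which those at -143 and -140 lie inside that CRE, began at positions -191, -143 and -140. In Dusp5 an SRE began at each of positions -82 and -72 and a CRE core at position -55. In Gadd45b an EGR site began at position -30, and another was found in Creb1 at position -68. The Dusp6 and Spry2 windows held none of these letters, which says only that they are not in this stretch. For scale, 32851 windows of the same length were searched with no chromosome left out. Of these, 1.79% held a full CRE, 20.8% a core, 1.63% an SRE, 5.55% an EGR site and 7.81% an AP-1 site. Such matches describe the sequence and are not evidence of binding.

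Per kilobase of exon, Spry2 (21.9 CPM per kb) and Dusp6 (19.3 CPM per kb) were the most abundant of the 10 transcripts on average over the 20 libraries, and Crem (3.32 CPM per kb) and Sik1 (2.52 CPM per kb) the least. The length is that of all annotated exons of a gene together (13742 bases for Creb1 and 5895 for Crem). It can exceed that of the transcripts present, so the order depends in part on the annotation. Dusp5, Dusp4 and Gadd45b lay at 9.59, 8.82 and 7.02 CPM per kb, Creb1 and Dusp1 at 5.44 and 4.92 CPM per kb, and Spry4 at 3.64 CPM per kb. The ratio of the highest to the lowest library was 4.26 for Sik1, 3.15 for Dusp1, 2.89 for Gadd45b and 2.61 for Dusp5, against 1.51 for Creb1 and 1.47 for Spry2. Sik1, Dusp1 and Gadd45b thus varied most over the 20 libraries, and the transcription factor Creb1 and the abundant Spry2 least. This ratio includes differences between the groups, and the highest Sik1 value was that of 5mSC replicate 3.

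The age comparison under standard conditions asks which transcripts differ in the old hippocampus. All 10 genes had a lower mean level in 24mSC than in 5mSC. Their log2 fold changes ran from -0.93 to -0.07 with a median of -0.42, against a median of -0.01 over all genes, 52.0% of which were below 0. In 4 of the 10 (Crem, Sik1, Spry2 and Spry4) every 24mSC library lay below every 5mSC library, as was so for 1.56% of all genes. By edgeR's quasi-likelihood test, Crem and Dusp5 were among the 56 genes called lower at an adjusted p under 0.05, which is 0.335% of the genes tested. These shares use the comparison from which the genes were chosen and are printed for scale only. Without 5mSC replicates 1 and 3 the 10 genes stayed below 0 with a median of -0.48, 8 of them did not overlap between the groups (5.52% of all genes did so in that direction), and 6 were called (2.14% of genes in either direction). The calls depended on single libraries: Crem alone was called without 24mSC replicate 1, 2, 3 or 5 (0.231%, 0.338%, 0.178% and 0.397% of all genes), whereas 5 of the 10 were called without 5mSC replicate 3 (3.58% of all genes), 4 without 5mSC replicate 4 (2.0%) and 3 without 5mSC replicate 2 (6.67%). A fit of the 2 groups alone called 0 of the 10 (0.019% of genes), edgeR with no filter 1 (0.169%), limma-voom 5 (1.83%) and DESeq2 6 (4.55%). In bulk tissue, fewer cells of a type and less RNA per cell cannot be told apart.

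**Figure D1:**
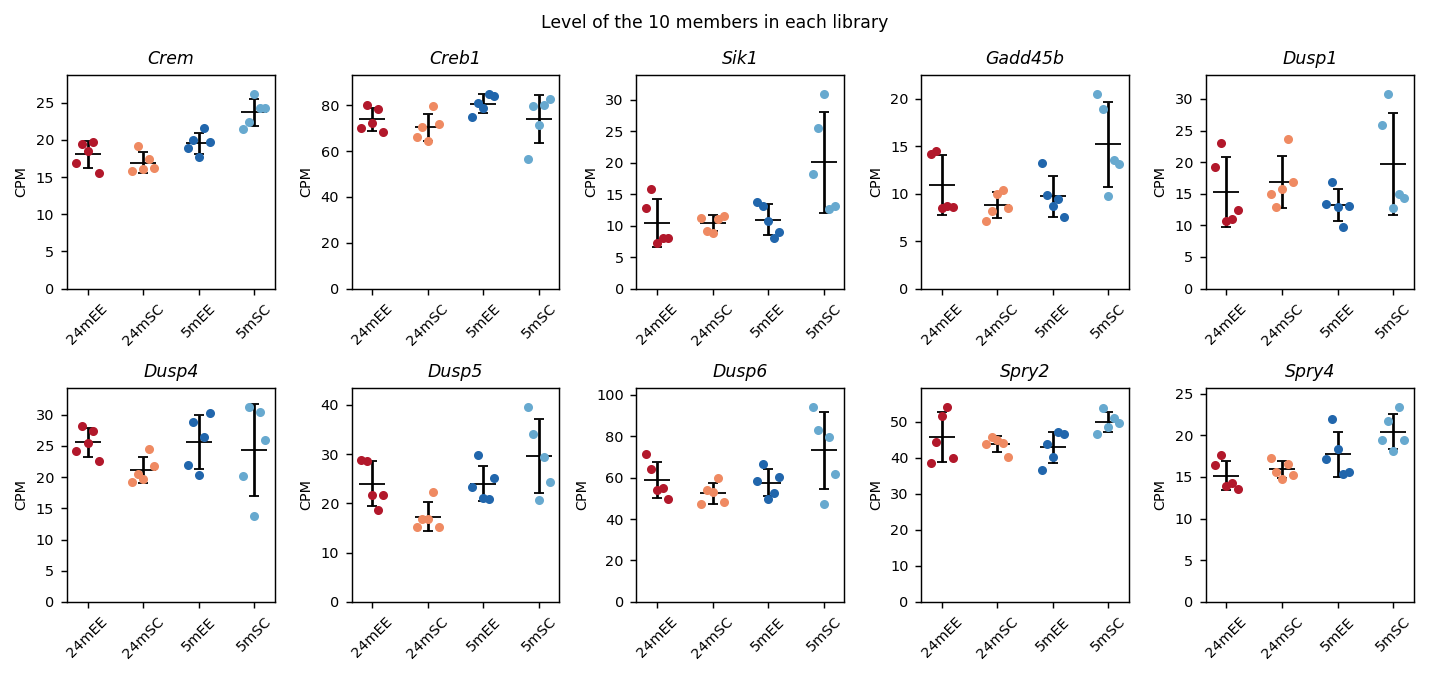
Level of the 10 genes, in CPM, in each of the 20 libraries by group. Points are libraries in the order of their replicate numbers, horizontal bars group means and vertical bars SD (n = 5). Crem in 24mSC lies between 15.8 and 19.2 CPM, below all 5mSC libraries (21.45 to 26.2 CPM), and 5mSC has the largest SD of the 4 groups for 8 of the genes, all but Spry2 and Spry4.

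Crem, a CREB relative whose short inducible product ICER represses CRE-driven genes, had 15.8, 19.2, 16.04, 17.5 and 16.25 CPM in 24mSC, against 21.45, 22.4, 26.2, 24.25 and 24.35 CPM in 5mSC. The 24mSC libraries averaged 16.96 ± 1.42 CPM and those of 5mSC 23.7 ± 1.85 CPM (mean ± SD of 5), with a log2 fold change of -0.48 ± 0.082 (SE). The groups did not overlap, and of the 10 genes Crem had the largest difference relative to its SE. The gene lies on chromosome 18 (3266048 to 3337748, minus strand, GRCm38). Counts are summed over all Crem isoforms, so ICER is not separated, and 8.01% of the exon length overlaps Gm6225 on the opposite strand, at most 0.88 CPM in any library.

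Creb1, the activator itself, is not known as an induced gene. It had 64.55 to 79.5 CPM (median 70.3) in 24mSC and 56.4 to 82.5 CPM (median 79.5) in 5mSC, the 5mSC values spread beyond the 24mSC range at both ends, and the log2 fold change was -0.07 ± 0.088. Without 5mSC replicates 1 and 3 it was -0.20 ± 0.066, with a 5mSC range of 79.47 to 82.5 CPM. The lowest of the 20 values was that of 5mSC replicate 1.

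Sik1, a kinase that phosphorylates the CRTC coactivators of CREB and keeps them out of the nucleus, had 11.2, 9.145, 8.87, 11.01 and 11.55 CPM in 24mSC, against 18.2, 25.5, 30.9, 12.6 and 13.1 CPM in 5mSC. The 24mSC libraries lay close together and below all of 5mSC, whereas the 5mSC libraries were spread widely, with the highest value in replicate 3. The log2 fold change was -0.93 ± 0.25 and became -0.70 ± 0.25 without 5mSC replicates 1 and 3. Gadd45b, an activity-induced protein tied to DNA demethylation and to stress kinase signalling, had 7.09, 8.16, 9.93, 10.4 and 8.49 CPM in 24mSC, against 20.5, 18.95, 9.75, 13.55 and 13.1 CPM in 5mSC. Replicate 3 was the lowest 5mSC library and the only one inside the 24mSC range, and the log2 fold change was -0.79 ± 0.20.

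The DUSP genes encode phosphatases that inactivate MAP kinases. Dusp5, which acts on ERK in the nucleus, had 15.1, 16.9, 16.9, 22.25 and 15.15 CPM in 24mSC, against 39.5, 34.1, 20.6, 29.4 and 24.35 CPM in 5mSC. The groups met only at 24mSC replicate 4 and 5mSC replicate 3, the means were 17.3 ± 2.92 CPM in 24mSC and 29.6 ± 7.54 CPM in 5mSC, and the log2 fold change was -0.79 ± 0.16. Of the Dusp5 exon length, 22.12% overlaps an annotated gene on the opposite strand, AC137853.2, which was not matched in the count table, and the kit does not mark strand.

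Dusp6, the cytoplasmic phosphatase of ERK, had 47.2, 54.2, 53.1, 59.8 and 48.3 CPM in 24mSC, against 94.0, 82.9, 47.2, 79.7 and 61.8 CPM in 5mSC, with a log2 fold change of -0.48 ± 0.14. 5mSC replicate 3 lay within the 24mSC range and the other 4 young libraries above it. Dusp1, a nuclear phosphatase of ERK, p38 and JNK, had 13.0 to 23.65 CPM (median 15.7) in 24mSC and 12.8 to 30.8 CPM (median 15.0) in 5mSC, and its log2 fold change of -0.24 ± 0.25 was smaller than its SE (-0.13 by limma-voom). Dusp4, another nuclear phosphatase, had 19.2 to 24.5 CPM (median 20.6) in 24mSC and 13.8 to 31.2 CPM (median 26.01) in 5mSC (-0.22 ± 0.16 on the log2 scale). For both genes the ranges overlapped, and 5mSC replicate 3 was the lowest library of 5mSC. Without 5mSC replicates 1 and 3 the fold change of Dusp4 was -0.47 ± 0.12 and its groups no longer overlapped.

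Sprouty proteins restrain the path from growth factor receptors through Ras to ERK. Spry4 had 17.3, 15.6, 14.8, 16.6 and 15.25 CPM in 24mSC, against 19.5, 21.8, 18.1, 23.4 and 19.4 CPM in 5mSC, with a log2 fold change of -0.36 ± 0.10. Spry2 had 43.7, 45.8, 45.1, 44.1 and 40.2 CPM in 24mSC, against 46.5, 53.9, 48.65, 51.1 and 49.6 CPM in 5mSC, with a log2 fold change of -0.19 ± 0.090. Both genes stood apart between the groups by small amounts, the highest 24mSC library of Spry2 being less than 1 CPM below the lowest of 5mSC.

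Under the enriched environment the difference between ages was smaller in size for 9 of the genes, all but Creb1, in the edgeR fit of all libraries. Without 5mSC replicates 1 and 3 that of Creb1 was smaller too (-0.13 against -0.20 on the log2 scale). By limma-voom that of Dusp1 was larger under the enriched environment (0.18 against -0.13). Since the genes were chosen with 24mSC against 5mSC in view, a smaller difference elsewhere follows in part from the choice and is given as a description. In 24mEE against 5mEE the log2 fold changes of the 10 genes ran from -0.22 (Spry4) to 0.22 (Dusp1) with a median of 0.00, the value over all genes being 0.00 too. None of the 10 was called by edgeR, against 0.108% of all genes, 1 had an unadjusted p under 0.05, against 4.61% of all genes, and no gene of the 10 separated the groups, against 2.76% of all genes. DESeq2 and limma-voom also called 0 of the 10, against 0.234% and 0.971% of all genes. Crem had 16.8, 19.5, 18.6, 19.7 and 15.6 CPM in 24mEE, against 18.9, 20.1, 17.75, 21.6 and 19.7 CPM in 5mEE, which overlap. Dusp5 had 24.0 ± 4.57 CPM in 24mEE and 24.0 ± 3.63 CPM in 5mEE, and Sik1 10.4 ± 3.78 CPM in 24mEE and 10.9 ± 2.47 CPM in 5mEE.

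At 24 months, the question was how old mice in an enriched environment (24mEE) differed from those under standard conditions (24mSC). 8 of the 10 genes had a fold change above 0, against 49.4% of all genes, and the median log2 fold change was 0.08. Dusp5 had the largest, 0.47 ± 0.16, with 28.9, 28.7, 21.7, 18.7 and 21.8 CPM in 24mEE, against 15.1, 16.9, 16.9, 22.25 and 15.15 CPM in 24mSC. 24mSC replicate 4 lay within the 24mEE range of Dusp5, and the other 4 libraries of 24mSC lay below it. Gadd45b (0.31 ± 0.20) and Dusp4 (0.27 ± 0.16) followed, whereas Dusp1 (-0.13 ± 0.25), Sik1 (0.01 ± 0.25) and Spry4 (-0.07 ± 0.10) were each smaller than their SE. The edgeR fit of all 20 libraries called 0 genes, members included, while 1037 genes (6.21%), 1 of the 10 among them, had an unadjusted p under 0.05. This count depended on the libraries fitted. With these 2 groups alone edgeR called 187 genes (1.17%), and with the 18 libraries 10 genes (0.059%), no member among them. DESeq2 called 31 genes (0.186%) and limma-voom 379 (2.27%), none of the 10 among them, and no gene of the 10 separated the groups (3.43% of all genes did).

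**Figure D2:**
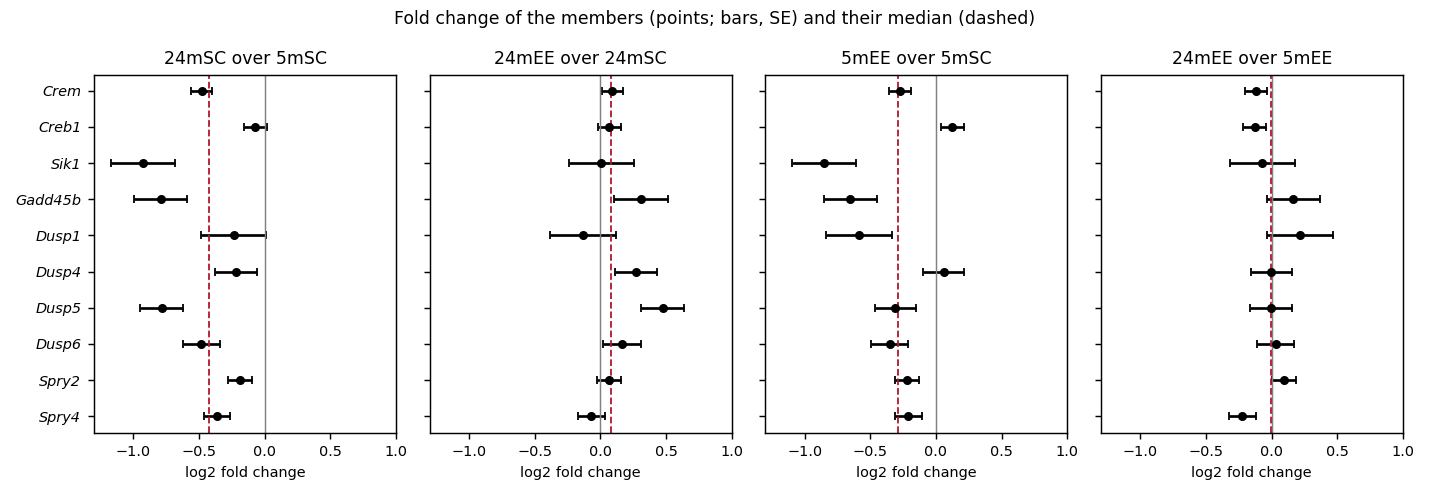
Log2 fold change (points) and SE (bars) of the 10 genes in 4 comparisons, from the fit of all 20 libraries. The dashed line is their median, -0.42 for 24mSC over 5mSC, 0.08 for 24mEE over 24mSC, -0.29 for 5mEE over 5mSC and 0.00 for 24mEE over 5mEE, and the comparisons share libraries.

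At 5 months, 8 of the 10 genes had a lower mean in 5mEE than in 5mSC, against 53.9% of all genes below 0, with a median log2 fold change of -0.29. The lowest were Sik1 (-0.85 ± 0.24), Gadd45b (-0.65 ± 0.20) and Dusp1 (-0.59 ± 0.25), and Creb1 (0.12 ± 0.088) and Dusp4 (0.06 ± 0.16) had fold changes above 0. Sik1 had 13.8, 13.05, 10.7, 8.10 and 8.95 CPM in 5mEE, against 18.2, 25.5, 30.9, 12.6 and 13.1 CPM in 5mSC, so that 3 of the 5 young standard libraries lay above every enriched one. Gadd45b had 13.2, 9.85, 8.64, 9.42 and 7.49 CPM in 5mEE, against the values of 5mSC given above, and Crem 18.9, 20.1, 17.75, 21.6 and 19.7 CPM in 5mEE, of which only replicate 4 reached the 5mSC range. The edgeR test called 0 genes in all, members included. At an unadjusted p under 0.05 there were 2759 genes (16.5%), 7 of the 10 among them, and DESeq2 called 30 genes and limma-voom 0, none of the 10. No gene of the 10 separated the groups, against 1.62% of all genes. Without 5mSC replicates 1 and 3, all 10 lay below 0, Dusp4 (-0.19 ± 0.11) and Creb1 (-0.003 ± 0.066) included, and 2 (Crem and Spry2) did not overlap, against 2.31% of all genes in that direction. This comparison and the age comparison share the 5mSC libraries, so their values are not independent of each other or of the choice of the genes.

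The interaction of age and housing, the difference between the housing effect at 24 months and that at 5 months, was above 0 for 9 of the 10 genes, against 51.8% of all genes, with a median of 0.41 on the log2 scale. It was largest for Gadd45b (0.96 ± 0.29), Sik1 (0.86 ± 0.35) and Dusp5 (0.78 ± 0.23), and -0.06 ± 0.12 for Creb1 (SE). The edgeR test called 0 of all genes, with 1336 at an unadjusted p under 0.05. Without 5mSC replicates 1 and 3 it was 0.47 ± 0.15 for Dusp4 and 0.07 ± 0.087 for Creb1. The interaction contains the difference of 24mSC from 5mSC with which the genes were chosen, so its direction in them is a description and no test of them.

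Averaged over the 10 genes after scaling each to a mean of 0 and an SD of 1 over the libraries, the level was -0.17 ± 0.55 in 24mEE, -0.55 ± 0.36 in 24mSC, -0.05 ± 0.35 in 5mEE and 0.77 ± 0.57 in 5mSC (SD, n = 5 each). Thus 5mSC was the highest group and 24mSC the lowest, with 24mEE and 5mEE between them and within an SD of each other.

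Within groups the genes fell into sets that deviated together. After the mean of each group was subtracted, the 6 pairs among Gadd45b, Dusp1, Dusp5 and Dusp6 had a Pearson r of 0.73 to 0.92 over 20 libraries, and the 3 pairs among Crem, Creb1 and Spry2 one of 0.44 to 0.58. Between the sets, r was -0.37 to -0.04. Over the 18 libraries without 5mSC replicates 1 and 3 these ranges were 0.66 to 0.90, 0.44 to 0.68 and -0.42 to 0.22. Sik1 had an r of 0.05 to 0.57 with the set of 4 over 20 libraries and of 0.55 to 0.89 over 18, so its place outside that set rests on 5mSC replicates 1 and 3. Dusp4 had an r of 0.60 with Creb1 over 20 libraries and of 0.70 over 18, above the pairs of the set of 3. The sets were picked after these values were seen, libraries share their depth and composition across genes, and no p-value is given.

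The set of 4 was high in the same libraries as the immediate early genes. All 4 were highest in 24mSC replicate 4, and in 24mEE replicates 1 and 2 and in 5mSC replicates 1 and 2 each of the 4 ranked first or second. Of 18 immediate early genes, 10 were highest in 24mEE replicate 2, 12 in 24mSC replicate 4, 12 in 5mEE replicate 2 and 13 in 5mSC replicate 2. In these 4 libraries, where most immediate early genes were highest, the mean of 6 neocortex markers was also the highest of its group: 4.23 log2 CPM in 24mEE replicate 2 (lowest of the group 3.54), 4.36 in 24mSC replicate 4 (lowest 3.88), 4.00 in 5mEE replicate 2 (lowest 3.58) and 4.28 in 5mSC replicate 2 (lowest 3.63). The set of 4 was also high in 5mSC replicate 1 (mean 5.23 log2 CPM) and 24mEE replicate 1 (4.78). Their neocortex means, 3.78 and 3.67, were not the highest of their groups. The part of neighbouring cortex in the level of these genes was not tested.

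**Figure D3:**
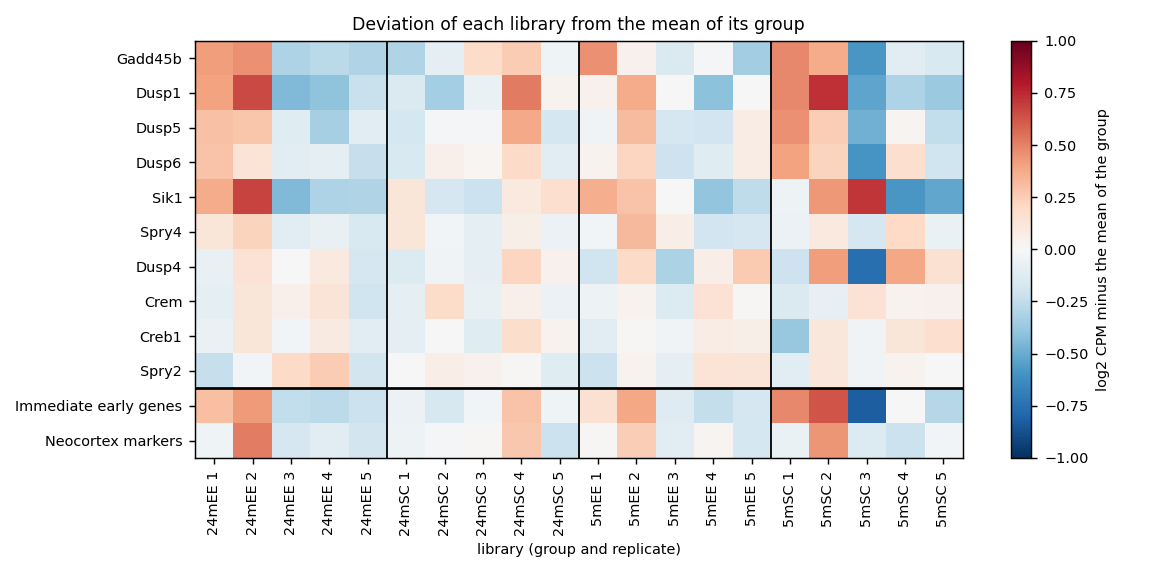
Log2 CPM of each library minus the mean of its group for the 10 genes (rows, top) and for the mean of 18 immediate early genes and of 6 neocortex markers (rows below the line). Columns are the 20 libraries. Gadd45b, Dusp1, Dusp5 and Dusp6 are red in 24mEE replicates 1 and 2, 24mSC replicate 4 and 5mSC replicates 1 and 2, and blue in 5mSC replicate 3.

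Across groups, neocortex markers averaged 4.09 ± 0.18 log2 CPM in 24mSC and 3.84 ± 0.26 in 5mSC, and striatum markers 3.58 ± 0.08 in 24mSC and 3.06 ± 0.32 in 5mSC, so both lists were higher on average in the group where the 10 genes were lower. Neocortex markers averaged 3.72 ± 0.29 in 24mEE and 3.76 ± 0.16 in 5mEE, and striatum markers 3.06 ± 0.29 and 3.07 ± 0.22. 24mSC was thus the highest group for both lists. The comparison of 24mEE with 24mSC and the interaction carry this difference too. Dentate gyrus granule cell markers averaged 5.92 ± 0.11 log2 CPM in 24mEE, 5.50 ± 0.43 in 24mSC, 5.90 ± 0.35 in 5mEE and 5.60 ± 0.36 in 5mSC. Microglia markers averaged 5.97 ± 0.09 log2 CPM in 24mSC and 5.64 ± 0.36 in 5mSC, or 5.80 ± 0.09 in 5mSC without replicate 3. Choroid plexus markers averaged 1.16 ± 0.58 in 24mSC and 1.44 ± 1.24 in 5mSC, or 0.89 ± 0.26 in 5mSC without replicate 3, which turns the direction. The part of these differences in the results was not tested.

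Relatives of the 10 genes were mixed in direction in the age comparison. The 6 other MAP kinase phosphatases all had fold changes above 0 in 24mSC over 5mSC (median 0.12 on the log2 scale), with Dusp2 at 0.48 ± 0.23 (adjusted p = 0.245, edgeR) and Dusp16 at 0.14 ± 0.14, and none was called. Their mean was 3.21 ± 0.09 log2 CPM in 24mSC and 2.99 ± 0.34 in 5mSC (SD). Without 5mSC replicate 3, the lowest library of that group, the 5mSC mean was 3.10 ± 0.26. For Dusp7 the 5mSC libraries ran from 28.6 to 66.1 CPM, beyond the 24mSC range (54.2 to 58.85 CPM) at both ends. Those of Dusp8 did so too (89.95 to 178.3 CPM, against 151.0 to 164.9 CPM). Of the 5 other Sprouty and Spred genes 1 was called: Spry3 fell by 0.37 ± 0.074 on the log2 scale (adjusted p = 0.0239, edgeR), and 12.6 ± 0.85 CPM in 24mSC compare with 16.3 ± 1.08 CPM in 5mSC. Spry1 had a log2 fold change of -0.17 ± 0.11 (adjusted p = 0.379, edgeR). Gadd45g, a relative of Gadd45b, had 12.9 ± 1.61 CPM in 24mSC and 18.4 ± 4.63 CPM in 5mSC (log2 fold change -0.52 ± 0.17, adjusted p = 0.104, edgeR), and Gadd45a a log2 fold change of 0.15 ± 0.16.

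**Figure D4:**
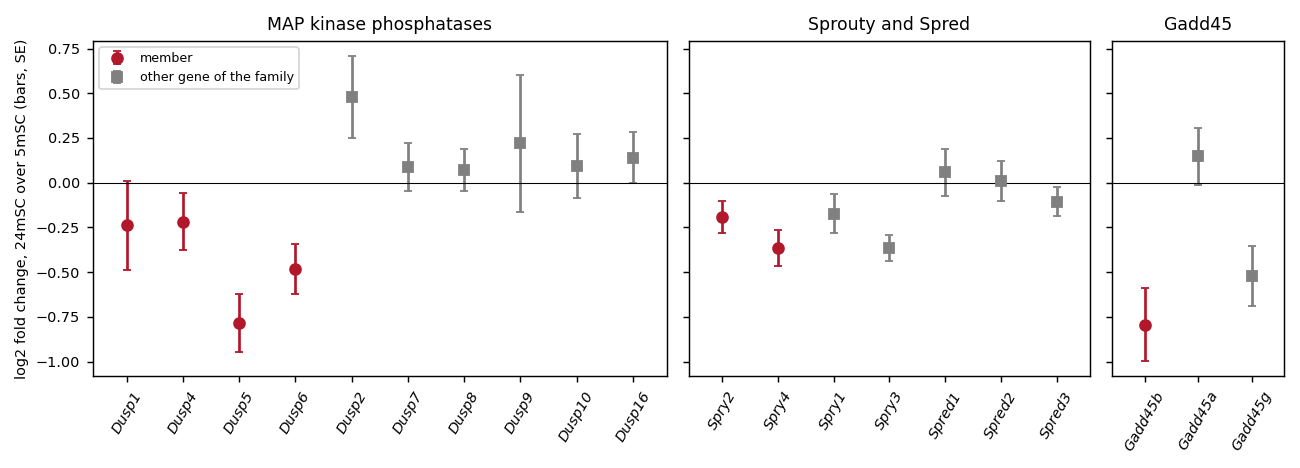
Log2 fold change of 24mSC over 5mSC (points; bars, SE) for genes of the 10 (red circles) and other genes of their families (grey squares). Dusp5 and Dusp6 lie at -0.79 and -0.48, whereas the 6 other phosphatases lie above 0, only Dusp2 by more than its SE. Spry3 lies near Spry4.

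The kinases and cofactors that feed the pathway had medians near 0. Of 15 CREB family members, coactivators and kinases none was called (median 0.09 on the log2 scale), the smallest p being those of Prkacb, a catalytic subunit of protein kinase A (0.41 ± 0.11, adjusted p = 0.0739, edgeR), and Crtc2, a CREB coactivator (-0.22 ± 0.07, adjusted p = 0.0913, edgeR). Of 18 genes of the ERK cascade (median 0.06) and 11 p38 and JNK kinases (median 0.14) none was called either, and 12 and 10 of them lay above 0. In the ERK cascade the smallest p were those of Nras, a Ras protein (-0.20 ± 0.07, adjusted p = 0.122, edgeR), and Rps6ka2, a kinase downstream of ERK (0.32 ± 0.12, adjusted p = 0.15, edgeR). Among the p38 and JNK kinases they were those of Map2k3, which activates p38 (-0.30 ± 0.11, adjusted p = 0.126, edgeR), and Mapk9, a JNK (0.19 ± 0.088, adjusted p = 0.234, edgeR).

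Transcripts that activity induces lay mostly on the side of the 10 genes. Like the 10 genes, the lists were drawn up with earlier results of these data known. Their counts and p-values are therefore a description and no independent support. In 24mSC over 5mSC, 52.0% of all genes lay below 0 and 0.335% were called lower. All 18 immediate early genes had a fold change below 0 (median -0.56), and none was called, with Fosb, a subunit of AP-1, at -0.80 ± 0.21 (adjusted p = 0.062, edgeR) and Arc, which acts at synapses, at -1.40 ± 0.37 (adjusted p = 0.0648, edgeR). Arc ranged from 74.7 to 141.2 CPM in 24mSC and from 79.0 to 420.1 CPM in 5mSC. Of 12 activity-induced effector genes 9 lay below 0 and 3 above (median -0.21), and 2 were called. Homer1, a scaffold of metabotropic glutamate receptors, fell by 0.71 ± 0.12 on the log2 scale (adjusted p = 0.00864, edgeR) and Inhba, a subunit of activin, fell by 1.20 ± 0.28 (adjusted p = 0.0446, edgeR). Of 12 other induced feedback genes 9 lay below 0 and none was called, with Errfi1, an inhibitor of the EGF receptor, at -0.50 ± 0.13 (adjusted p = 0.0577, edgeR) and Trib1 at -0.48 ± 0.15 (adjusted p = 0.0902, edgeR). In a separate list, not defined by activity, all 10 glucocorticoid targets lay below 0 (median -0.20) and none was called. Tsc22d3 was at -0.48 ± 0.14 (adjusted p = 0.0722, edgeR) and Mt2 at -0.58 ± 0.21 (adjusted p = 0.141, edgeR). Over all these lists 3 genes were called, against 0.803% of all genes. The count was 1 without 24mSC replicate 1, 2 or 3 (0.231%, 0.338% and 0.178% of all genes). It was 8 without 5mSC replicate 2 (6.67% of all genes) and 19 without 5mSC replicate 3 (3.58%). The count thus moved with that over all genes. In the other 3 comparisons and the interaction edgeR called 0 genes of these lists, and the largest count at an unadjusted p under 0.05 was 12 of the 18 immediate early genes, in 5mEE against 5mSC (median -0.59), where 16.5% of all genes passed. The count was also 12 in 24mSC against 5mSC, where 20.5% of all genes passed. Both comparisons use the same 5mSC libraries.

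The genes most like the mean of the 10 over the 20 libraries were Trib1 (r = 0.93), Arc (0.91), Nr4a1 (0.91), Dnajb5 (0.89), Homer1 (0.85), Tiparp (0.83), Taf5 (0.83) and 1700016P03Rik (0.82), among 13109 genes compared. Most of these are themselves known as activity-induced. 1700016P03Rik (chromosome 11, 75172560 to 75177633, plus strand, GRCm38) contains the hairpins of Mir212 and Mir132, whose mature products were not measured here. Crem alone had other neighbours, led by Rab28 (r = 0.87), Dok3 (0.86), Hist1h2bc (0.86) and Rpe (0.85), followed by 1700123O20Rik, Tmco1, Dnase1l2 and Ndufaf4 (0.83 to 0.85). The libraries share their groups in both rankings, and the r describes likeness only.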

How the data were processed

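Single-end reads of 50 nucleotides came from TruSeq libraries that do not mark strand. The authors deposited raw counts per Ensembl gene. The processing notes of the submitters list the GRCm38 build, featureCounts 1.4.6-p4, STAR 2.4.1d and, for base calls, bcl2fastq 1.8.2, and the study's own results used another alignment and counting. The deposited RPKM table was not used. The 10 genes and all gene lists were chosen with earlier results of these data known. Replicate numbers follow the order of deposition and pair no libraries.

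Counts were analysed with edgeR 4.0.16 in R 4.3.3 (filterByExpr, TMM, 1 quasi-likelihood fit of 4 groups over 20 libraries), and p-values were Benjamini-Hochberg adjusted over all 16692 genes and called under 0.05. SE is the fold change divided by the root of the F statistic. Log2 CPM used a prior count of 2. The rule for naming took, in each comparison, up to 4 called genes of a list or, where fewer than 2 were called, the 2 with the smallest p. The text applies it to 24mSC against 5mSC only. Alternatives were DESeq2 1.42.0, limma 3.58.1 voom with quality weights, other filters and scaling, a fit of 2 groups, 18 libraries, and leaving out libraries, of which leaving out those outside a comparison, and any for the lists, was chosen after seeing the data. The script was tested on simulated data. Detection limits cover counting error only.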

Additional observations from a re-analysis of the deposited data

Results flagged for a closer look

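In the 24mSC group, replicate 4 stood away from the other libraries for Dusp5, with 22.25 CPM, against 15.14 to 16.93 CPM in the other 4. The gap was 0.748 of the range of the group, above Dixon's 95% critical value for 5 samples. It was the only such value among the 40 groups of 5 tested for the 10 genes, and chance marks about 1 in 20 groups. The same library held the highest Gadd45b, Dusp1, Dusp4 and Dusp6 of its group and the highest neocortex marker mean, 4.36 log2 CPM.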

How the results depend on the processing

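In 24mSC against 5mSC, the 2 of the 10 genes called became 6 by DESeq2's Wald test (4.55% of all genes), 5 by limma-voom with quality weights (1.83%), 6 without 5mSC replicates 1 and 3 (2.14%), 1 with no filter (0.169%) and 0 in a fit of the 2 groups (0.019%), and 1 to 5 leaving out 1 library at a time. The 3 list genes called became 12, 12, 13, 1 and 0 under these settings in the same order, and 1 to 19 leaving out 1 library. DESeq2 size factors and a filter at a CPM of 1 kept the count of the 10 genes at 2. In 24mEE against 24mSC the lists gave 8 called genes by limma-voom (2.27% of all genes) and 4 when only these groups were fitted (1.17%), and the interaction gave 1 without 5mSC replicates 1 and 3, against 0 in each case. The cause of these differences was not tested, beyond the smaller number of libraries in the fits that leave some out. None of the 10 was called in the other 3 comparisons or the interaction under any alternative. All 10 fold changes of 24mSC over 5mSC kept their sign, whereas 2, 2 and 4 changed sign under some setting in 24mEE over 24mSC, 5mEE over 5mSC and 24mEE over 5mEE, and 1 in the interaction, with values between -0.13 and 0.12 in the fit reported. Of the 6 promoter windows searched, the CRE core was found in 2 and the full CRE in 1.

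The counts allow no view of isoforms, cell types or time since activity. Group spread in 5mSC, the shallowest library of which had 11 M counts, limits what 5 libraries can resolve.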
